A study of Gallus gallus with 4 samples.

Results

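The comparison described here set granulosa cells of preovulatory follicles against granulosa cells of prehierarchical follicles of the chicken, both transfected with an empty plasmid, by RNA sequencing with 1 library on each side. Genes were kept when their mean over the 2 control plasmid libraries was at least 1 FPKM (fragment counts scaled by transcript length and by the mapped fragments of the library). That rule kept 10642 of the 13819 genes listed for any library of the series. A table listed 13357 genes for at least 1 of the 2 control libraries, so 2715 of these lay below the filter. Near the filter, 80 genes had a mean from 1 to under 1.1 FPKM and 122 had one from 0.9 to under 1 FPKM.

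Per the labels, the preovulatory cells came from follicles F2 to F4 and the prehierarchical cells from follicles labelled SYF, both taken from hens of 26 weeks. The cells were cultured in M199 medium with 5% fetal bovine serum at 39°C, transfected after 18 h with Lipofectamine 2000 and collected 48 h later. All cultures were therefore exposed to a plasmid and the transfection reagent, and those of the 2 control libraries received pcDNA3.1 without an insert. The other 2 libraries of the series, 1 preovulatory and 1 prehierarchical, received pcDNA3.1 with FOXL2, a forkhead transcription factor of the ovary, and are used below as a second pair that shares no library with the control pair. The strain of the hens, the share of cells transfected and the number of birds behind a library are not stated in the labels. The cells were measured after culture, so the values describe cultured cells and not the follicle wall as it was in the hen.

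Granulosa cells form the layer of somatic cells next to the oocyte and its yolk. In the hen, small follicles of the prehierarchical pool wait for selection, and a selected follicle enters a ranked hierarchy, takes up yolk rapidly and moves towards ovulation. Across selection, granulosa cells are known to pass from a follicle-stimulating hormone responsive, little differentiated state to one that responds to luteinizing hormone and makes progesterone. This is background from textbooks. None of the 13819 gene identifiers in the tables matched the reference gene table, which gives no Ensembl identifiers, and the tables hold no gene names. Steroidogenic enzymes, gonadotropin receptors, markers of granulosa, theca and other cells, and FOXL2 itself were therefore not analysed here, and the labelled cell type was not checked against its markers. Genes are described by level, by size of difference and, for 4 of them, by identifier.

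The 2 control tables were alike in size. They listed 12709 genes in the preovulatory and 12724 in the prehierarchical library, with FPKM sums of 540243 and 534484. The steps between low FPKM values put the sequencing depth of the prehierarchical control at 1.04 times that of the preovulatory control. Of 1755 genes with 1 transcript and 0.05 to 2 FPKM in both tables, 1427 had a ratio within 1.7 log2 units of that depth shift. Of these ratios, 54.0% lay within 0.06 log2 units of a simple fraction such as 1/2 or 2/3, against 23.5% of 2294 genes at 10 to 30 FPKM. The depth shift was read from the most frequent ratio of the same low genes and then applied to both sets. Part of this contrast is therefore fixed by that choice. To read the size of a step, 380 genes with 1 transcript were picked that at least 2 of the 4 tables listed and at least 1 did not. They were also picked for listed values within 0.15 log2 units of each other. Their lowest values had a median of 0.21 FPKM (quartiles 0.12 and 0.36). If such a value is taken as 1 fragment, which is an assumption, 1 FPKM stands for about 4.76 fragments at the median of these 380 genes. The number varies with transcript length and was not worked out for all genes kept. On that assumption, ratios near the filter rest on few fragments. With 1 library per group, no value has a replicate error, no p-value is given, and phase and cell preparation cannot be told apart.

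Preovulatory and prehierarchical control cells differed at least 2-fold in 1652 genes, 15.5% of the genes kept, on the scale of the log2 ratio of (FPKM + 1). Preovulatory cells had the higher level in 798 (7.50%) of them and the lower level in 854 (8.02%). At 4-fold the numbers were 108 (1.01%) higher and 187 (1.76%) lower, and at 8-fold they were 22 (0.207%) and 54 (0.507%). Lower genes outnumbered higher ones at each of these sizes. At 2-fold that order depended on the processing and on the pair of libraries. A pseudocount of 0.1 FPKM gave 1084 higher and 1038 lower genes, and a filter at 5 FPKM gave 556 and 544. In the FOXL2 pair, 991 of the same genes were 2-fold or more higher in preovulatory cells and 805 were 2-fold or more lower. At 4-fold lower genes were in excess under every alternative tried. In bulk cells, a lower share of cells of a type and less RNA per cell cannot be told apart.

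Most genes were less than 2-fold apart. The quartiles of the log2 ratio were -0.26 and 0.55, and 3107 genes (29.2%) lay within 0.25 log2 units of 0. The median was not 0 but 0.18, a 1.13-fold higher level in preovulatory cells, and 6572 genes (61.8%) had a ratio above 0. Counted from that median, preovulatory cells were 2-fold or more above prehierarchical cells in 509 genes and 2-fold or more below them in 1097, so that 31.7% of the genes 2-fold apart were higher, against 48.3% on the deposited scale. Near the 2-fold limit on the deposited scale, 244 genes were 2 to 2.2 times higher and 417 were 1.8 to under 2 times higher. On the lower side, 146 genes lay just past the limit and 206 just short of it.

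**Figure D1:**
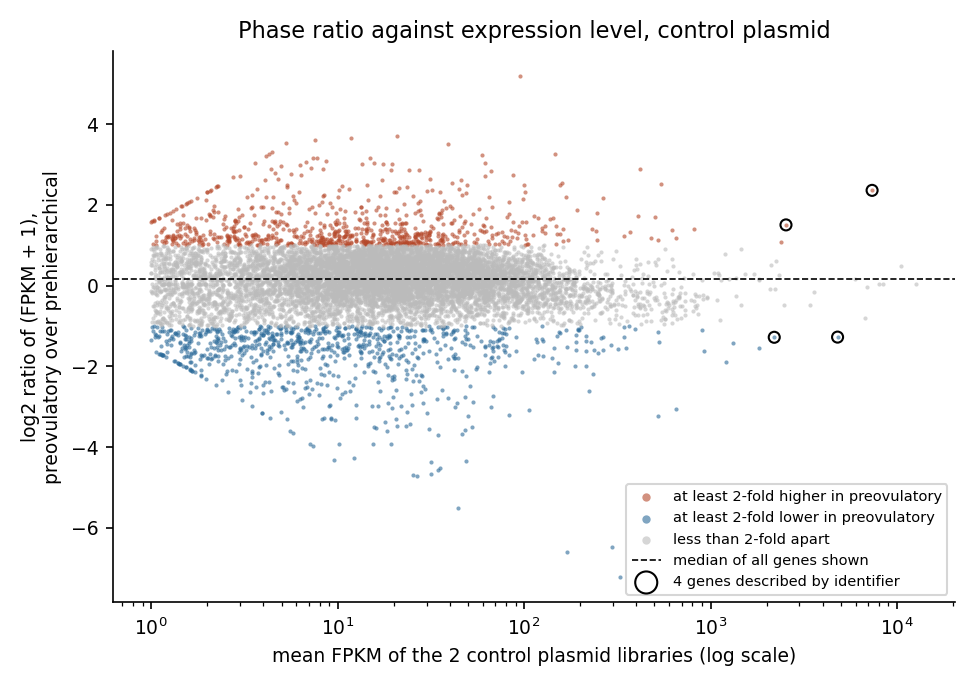
Each point is 1 of 10642 genes, with its mean FPKM over the 2 control libraries on a log axis and its log2 ratio of (FPKM + 1), preovulatory over prehierarchical, on the other axis. The points below -1 (854 genes) reach farther from the median line at 0.18 than the points above 1 (798 genes), down to -7.23 against up to 5.20.

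Genes of 10 to under 30 FPKM and genes of 300 to under 1000 FPKM leaned in opposite directions. Genes with a mean of 10 to under 30 FPKM (3635 genes) had a median log2 ratio of 0.27, and those of 30 to under 100 FPKM (2591 genes) one of 0.19. Both medians were on the preovulatory side, as was the median of all genes kept at 0.18. Genes of 300 to under 1000 FPKM (172 genes) had a median of -0.34, and 127 of them (73.8%) were lower in preovulatory cells. The median of the 638 genes of 100 to under 300 FPKM lay between, at -0.07. The 39 genes of at least 1000 FPKM had a median of 0.14. Set against the median of all genes, the 10 to 30 class stood 0.10 above it and the 300 to 1000 class at -0.52. The 30 to 100 class stood only 0.02 above it.

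The FPKM that the 10 to 30 and the 300 to 1000 classes held in the control pair leaned the same way as their medians. That follows largely from the ratios above, since the genes and the 2 control libraries are the same. Genes of 10 to under 30 FPKM held 13.3% of the FPKM of the preovulatory control and 11.7% of that of the prehierarchical control. Genes of 300 to under 1000 FPKM held 15.2% in preovulatory and 18.4% in prehierarchical control cells. In the FOXL2 plasmid libraries the same genes gave 13.8% in preovulatory and 10.8% in prehierarchical cells for the 10 to 30 class, and 15.0% and 19.3% for the 300 to 1000 class. Median log2 ratios of these 2 classes in the FOXL2 pair were 0.37 and -0.53, on the same sides as in the control pair and farther apart. The class of at least 1000 FPKM changed sides, with a median of -0.21 in the FOXL2 pair.

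Among genes below 100 FPKM, 2-fold differences were more frequent the lower the level. At least 2-fold differences were found for 27.9% of the 1269 genes of 1 to under 3 FPKM, with 160 higher and 194 lower in preovulatory cells. The share was 12.7% at 10 to under 30 FPKM and lowest, 9.49%, at 30 to under 100 FPKM, where 128 genes were higher and 118 lower. Above that level the share was larger again, with 13.95% of genes at 300 to under 1000 FPKM and 20.5% (8 of 39 genes) at 1000 FPKM and over. The classes of 10 to 30 and 30 to 100 FPKM were those in which more genes were higher than lower at 2-fold on the deposited scale. If the steps reported above are single fragments, counting error is wider in the low classes. Its part in their share was not tested.

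**Figure D2:**
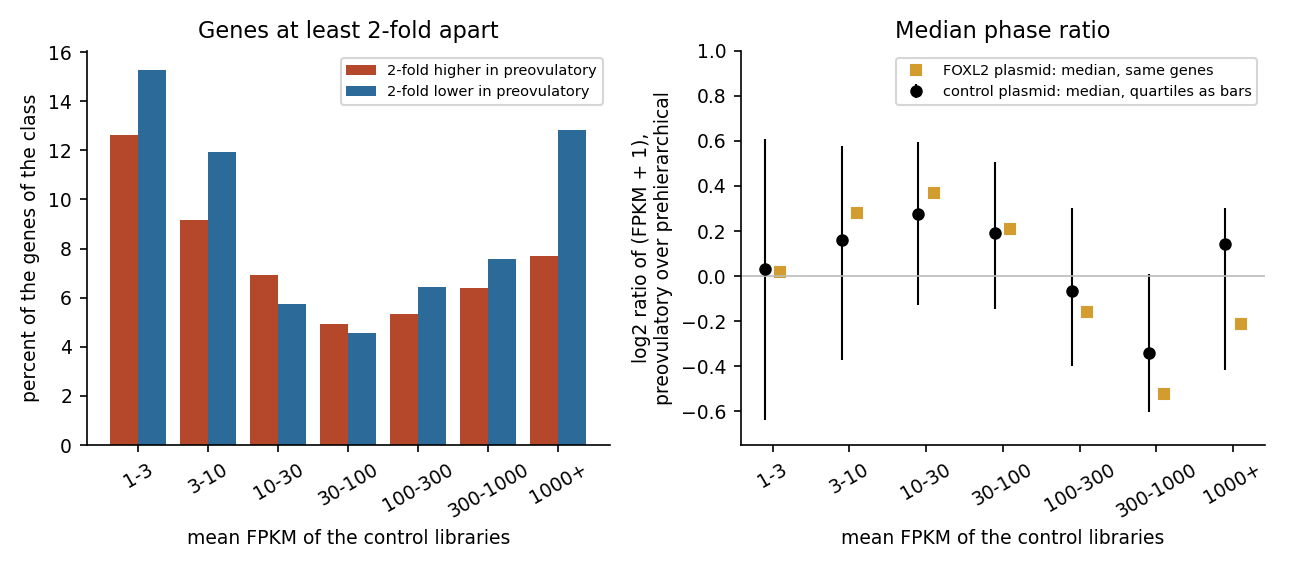
Left, bars give the percent of genes of each mean FPKM class that were at least 2-fold higher or lower in preovulatory than in prehierarchical control cells. Right, points give the median log2 ratio of (FPKM + 1) with quartiles as bars for the control pair, and squares the median of the same genes in the FOXL2 pair. The control median is 0.27 at 10 to 30 FPKM and -0.34 at 300 to 1000 FPKM.

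A single abundant gene made up much of the FPKM difference of the genes higher in preovulatory cells. The 798 higher genes took up 10.1% of the FPKM of the preovulatory control library and 3.24% of the prehierarchical one. For the 854 lower genes these shares were 3.41% and 10.6%. Of the summed FPKM difference of the higher genes, 1 gene made up 26.6% and 11 genes passed 50%. Of that of the lower genes, the first gene made up 10.5% and it took 24 genes to pass 50%. That order rested on the first genes: without the first gene of each side, 35 higher and 32 lower genes were needed to pass 50% of the rest. The higher group without its first gene held 7.82% of the preovulatory and 2.79% of the prehierarchical control FPKM, and the lower group without its first gene held 2.89% and 9.28%. Most members of both groups were not abundant, which was also true of all genes kept. A mean of at least 100 FPKM was reached by 48 higher and 59 lower genes. Of all 10642 genes kept, 638 had a mean of 100 to under 300 FPKM, 172 of 300 to under 1000 and 39 of at least 1000 FPKM. The median means of the higher and lower groups were 11.1 and 8.36 FPKM. Among all genes kept, the median mean was 17.3 FPKM for those with 1 transcript and 23.2 FPKM for those with several. Both groups thus lay at lower levels than the genes kept.

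**Figure D3:**
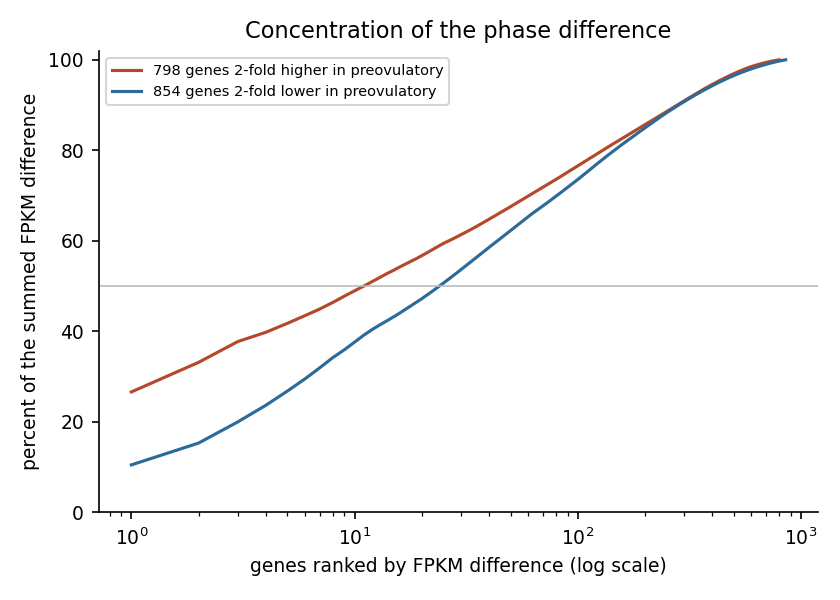
Lines give the cumulative percent of the summed FPKM difference between the control libraries over the genes 2-fold higher and 2-fold lower in preovulatory cells, ranked by that difference on a log axis. The line of the higher genes starts at 26.6% and crosses 50% at the gene ranked 11, and that of the lower genes starts at 10.5% and crosses 50% at the gene ranked 24.

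The widest gaps belonged to 4 genes that stood at the ends of the FPKM difference among genes 2-fold apart, 2 on each side. ENSGALG00000013575 had 12312 FPKM in the preovulatory control library, where it was the second most abundant gene, and 2397 FPKM in the prehierarchical control library, where it ranked 14. Its log2 ratio was 2.36, a 5.14-fold difference. In the FOXL2 libraries it had 9633 FPKM in preovulatory and 2648 FPKM in prehierarchical cells, a log2 ratio of 1.86. Both preovulatory libraries were thus above both prehierarchical ones. This gene alone held 2.28% of the preovulatory and 0.448% of the prehierarchical control FPKM.

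ENSGALG00000000956 had 3756 FPKM in the preovulatory and 1323 FPKM in the prehierarchical control library, a log2 ratio of 1.50. With the FOXL2 plasmid it had 2012 FPKM in preovulatory and 2734 FPKM in prehierarchical cells, a log2 ratio of -0.44. The phases overlapped in this gene, since the prehierarchical FOXL2 library lay above the preovulatory FOXL2 library. The tables list 3 transcripts for it and 1 for each of the other 3 genes named here.

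The other 2 genes were lower in preovulatory cells. ENSGALG00000028058 had 2806 FPKM in the preovulatory and 6796 FPKM in the prehierarchical control library, a log2 ratio of -1.28. Its FOXL2 libraries had 3046 FPKM in preovulatory and 7719 FPKM in prehierarchical cells, a log2 ratio of -1.34. ENSGALG00000014442 had 1281 FPKM in the preovulatory and 3112 FPKM in the prehierarchical control library, also a log2 ratio of -1.28. With FOXL2 it had 1169 FPKM in preovulatory and 3676 FPKM in prehierarchical cells, a log2 ratio of -1.65. In both genes each preovulatory library lay below each prehierarchical library.

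**Figure D4:**
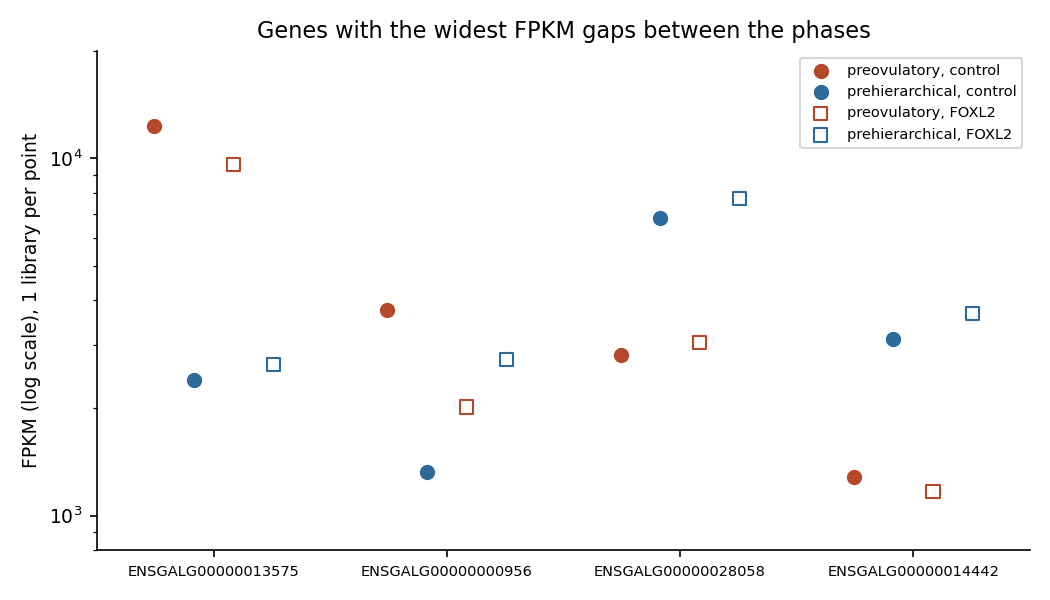
Points give the FPKM (log axis) of the 4 genes in each of the 4 libraries, with circles for the control and squares for the FOXL2 plasmid, red for preovulatory and blue for prehierarchical cells. The colours separate in 3 genes, and in ENSGALG00000000956 the order of the phases is opposite with the FOXL2 plasmid (2012 FPKM preovulatory, 2734 FPKM prehierarchical).

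The lists of the most abundant genes of the 2 phases overlapped. Of the 100 most abundant genes of each control library, 75 were shared, and among the shared genes 36 differed by less than 1.25-fold. In preovulatory control cells, 3 of the 75 exceeded the prehierarchical level by 2-fold or more, and 6 fell below it by that much. Among all genes kept, 7.50% were 2-fold or more higher and 8.02% 2-fold or more lower in the control pair. The count of 6 is thus near the share of genes at large. The share under 1.25-fold was not worked out for all genes kept, so the 36 have no base to be set against. Nor was the overlap of the top 100 worked out for 2 libraries of the same phase, so the 75 have none either. The 25 genes in the top 100 of the preovulatory library alone had a median of 654.7 FPKM there against 406.4 FPKM in the prehierarchical control, and 10 of them were at least 2-fold higher. Their medians in the FOXL2 pair were 628.3 FPKM in preovulatory and 515.8 FPKM in prehierarchical cells. The 25 genes in the top 100 of the prehierarchical library alone had a median of 453.7 FPKM in the preovulatory against 729.04 FPKM in the prehierarchical control. The preovulatory level was 2-fold or more below the prehierarchical one for 5 of them in the control pair and for 9 in the FOXL2 pair, while 10 genes of the preovulatory list were 2-fold or more above it in the FOXL2 pair. The medians of the prehierarchical list in the FOXL2 pair were 440.2 FPKM in preovulatory and 798.3 FPKM in prehierarchical cells. Each list was picked by rank in 1 control library, so a higher control level there is partly fixed by the choice. In the FOXL2 pair, 9.31% of all genes kept were 2-fold or more higher and 7.56% 2-fold or more lower in preovulatory cells.

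At the other end were genes under 1 FPKM in 1 phase and at 10 FPKM or more in the other. In 10 genes the preovulatory control had at least 10 FPKM (up to 22.6) and the prehierarchical control under 1 FPKM. In the FOXL2 pair these 10 genes had a median of 6.56 FPKM in preovulatory and 1.84 FPKM in prehierarchical cells, and preovulatory cells were 2-fold or more above prehierarchical cells in 6 of them. In 20 genes the preovulatory control had under 1 FPKM and the prehierarchical control at least 10 FPKM (up to 87.2). In the FOXL2 pair these 20 genes had a median of 0.87 FPKM in preovulatory and 12.2 FPKM in prehierarchical cells, and preovulatory cells were 2-fold or more below prehierarchical cells in 18 of them. The same pair of limits was met in the FOXL2 pair by 1 of the 10 genes and by 8 of the 20. How many of all genes kept met these limits there was not worked out, so these 2 counts have no base. Among all genes kept, preovulatory cells were 2-fold or more above prehierarchical cells in 9.31% and below them in 7.56% in the FOXL2 pair. Both sets were picked for a high level in 1 control library and a low level in the other. These limits place every gene of both sets at least 4-fold apart in the control pair. Their 2-fold counts in the FOXL2 pair are therefore part of the 4-fold counts given below, and all genes kept are an unlike base for them. In the control library where they were high, their medians were 13.2 FPKM for the 10 and 15.2 FPKM for the 20. The counts of the 2 sets are thus not like for like.

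Complete absence from a table was mostly a matter of low level. The preovulatory control table alone listed 633 genes, with a median of 0.29 FPKM, and the prehierarchical control table alone listed 648, with a median of 0.27 FPKM. Only 31 and 40 of these passed the filter on mean level, and the highest values were 10.6 FPKM in preovulatory and 19.02 FPKM in prehierarchical cells. Of the 31, the FOXL2 libraries had the higher value in preovulatory cells for 21, where 63.9% of all genes kept had a ratio on that side, so the count is near that of genes at large. Of the 40, they had the higher value in prehierarchical cells for 29, where 35.9% of all genes kept did. Only 6 of the 31 and 11 of the 40 had 5 FPKM or more in the table that listed them. Genes of 1 to under 3 FPKM had a median log2 ratio of 0.02 in the FOXL2 pair, against 0.23 for all genes kept. All genes kept are thus an unlike base for these low genes, and the 2 counts cannot be contrasted on it. The 31 and the 40 also passed the filter only through the control library that listed them. Neither count is therefore a test of the direction of these genes.

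The FOXL2 plasmid libraries gave a second measurement of the phase difference in the same genes. The plasmid differs, so the second pair is no replicate of the first. Whether the control and FOXL2 cultures of a phase came from the same cell preparation is not known. Likeness of the pairs by phase and by preparation therefore cannot be told apart. Per the file headers, 1 library of each pair has a trailing number in its column name (1 for the control plasmid in preovulatory cells, 2 for FOXL2 in prehierarchical cells), and the other 2 have none. What the number marks is not stated, and its part in these results was not tested. Of all 10642 genes, 991 (9.31%) had a preovulatory level 2-fold or more above the prehierarchical one in that pair, and 805 (7.56%) one 2-fold or more below it. Of the 798 genes 2-fold higher in preovulatory control cells, 406 were also 2-fold higher in the FOXL2 pair, 50.9% of the control list and 41.0% of the FOXL2 list. Of the 854 genes 2-fold lower in preovulatory control cells, 563 were also 2-fold lower, 65.9% of the control list and 69.9% of the FOXL2 list. The direction alone was the same for 715 of the 798 higher genes (89.6%) and for 818 of the 854 lower genes (95.8%). Among all genes, 63.9% had a ratio above 0 and 35.9% one below 0 in the FOXL2 pair.

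The gap between the 2 sides was wider for larger differences. Of the 108 genes at least 4-fold higher in preovulatory control cells, 70 (64.8%) were at least 2-fold higher in the FOXL2 pair, and of the 187 at least 4-fold lower, 169 (90.4%) were at least 2-fold lower. At 8-fold, 14 of 22 higher genes and 52 of 54 lower genes did so. For genes at least 2-fold apart, the share within each of the 7 classes of mean level was lower for the higher genes. It was 34.4% for the higher and 54.6% for the lower genes at 1 to under 3 FPKM, and 54.7% and 69.5% at 30 to under 100 FPKM. The classes above 300 FPKM hold few such genes, 14 higher and 18 lower in all. With the median ratio of each pair set to 0, the shares at 2-fold were 44.8% for the higher and 70.9% for the lower genes. The lists were not matched for the size of the control difference. At 2-fold the control medians of the log2 ratio were 1.27 for the higher and -1.49 for the lower genes. At 8-fold they were 3.19 and -3.50. The lower genes lay farther past the limit, so the shares of the 2 sides are not like for like. Whether the 2 sides differ in this respect was not tested, since each pair has 1 library a side.

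Sizes followed the same pattern. The genes at least 4-fold higher in preovulatory control cells had a median log2 ratio of 2.47 there and of 1.49 in the FOXL2 pair. Those at least 4-fold lower had a median of -2.58 there and of -2.34 in the FOXL2 pair. Genes picked as extremes of 1 pair are expected to lie closer to 0 in another, on either side. In the 108 higher genes, the preovulatory median was 12.5 FPKM with FOXL2 against 19.3 FPKM with control plasmid, and the prehierarchical median was 5.23 FPKM with FOXL2 against 2.53 FPKM with control plasmid. In the 187 lower genes, the preovulatory median was 2.57 FPKM with FOXL2 against 1.93 FPKM with control plasmid, and the prehierarchical median was 19.1 FPKM with FOXL2 against 19.97 FPKM with control plasmid. The higher genes thus had values closer together in both phases with FOXL2, while the medians of the lower genes lay nearer to their control plasmid values.

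**Figure D5:**
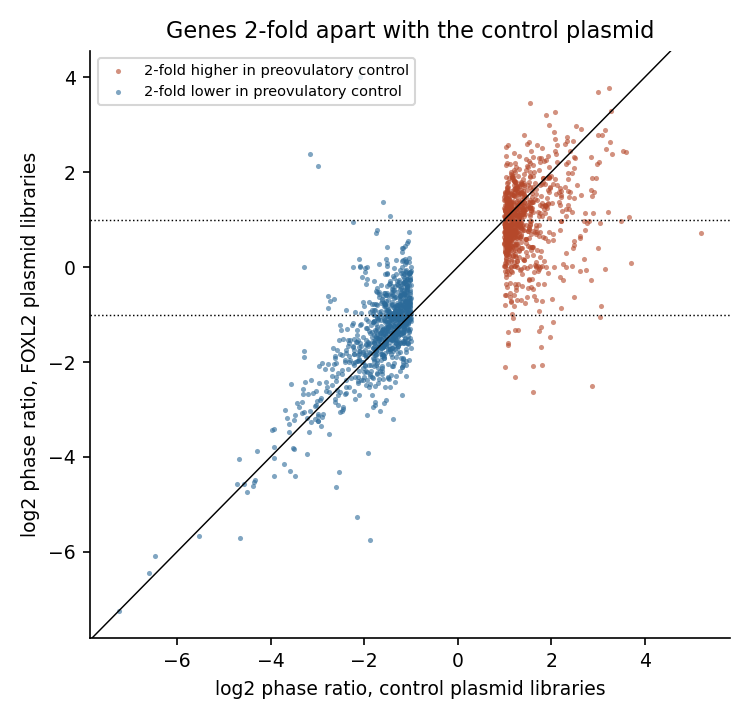
Each point is a gene at least 2-fold apart between the control libraries, red for genes higher and blue for genes lower in preovulatory cells, with the log2 phase ratio (preovulatory over prehierarchical) of the control pair on the horizontal and of the FOXL2 pair on the vertical axis. The solid line marks equal ratios and dotted lines mark 2-fold. Past the dotted lines on the same side lie 406 of 798 red points and 563 of 854 blue points.

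Genes with several transcripts in the tables, whose FPKM depends on how fragments are shared among transcripts, differed about as often as others. Of 554 such genes, 44 (7.94%) were 2-fold higher and 54 (9.75%) 2-fold lower in preovulatory control cells. Of the 10088 genes with 1 transcript, 754 (7.47%) were higher and 800 (7.93%) lower.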

How the data were processed

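RNA sequencing was done on 4 libraries, 1 per group, so samples were grouped by title. The authors deposited 1 table per library with FPKM values per Ensembl gene, per the file headers. Bowtie, RSEM and genome build galGal4 are named in the submitters' processing notes, with no versions; parameters, strand use and read depth are not stated there. The tables list values of at least 0.01 FPKM; genes that a table does not list were set to 0. RSEM divides fragments among similar transcripts, so near-identical genes carry an uncertainty that FPKM does not show. FPKM is relative within a library, so abundant genes shift all others.

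The 2 control tables were joined on gene identifier, filtered at a mean of 1 FPKM and compared by log2((preovulatory + 1)/(prehierarchical + 1)), which understates the change of low genes. Genes were counted by size, with no test. Genes printed by identifier were the 2 highest and 2 lowest FPKM differences among genes 2-fold apart and averaging at least 5 FPKM, which was the rule for the case that no symbols could be assigned. The 27 gene lists were not analysed for the same reason. The comparison, lists and rules were chosen with earlier results of these data known. Alternatives were pseudocounts of 0.1 and 5 FPKM, no filter, a filter of 5 FPKM, 3 scalings, genes listed in both tables, and the FOXL2 libraries. The calculations were tested on simulated data and run in Python 3.11.15 with pandas 2.3.3, numpy 2.4.6 and scipy 1.17.1.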

Additional observations from a re-analysis of the deposited data

Results flagged for a closer look

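The number of genes at least 2-fold apart in opposite directions in the control and the FOXL2 plasmid pair was 23 of 10642. It is given here because the single pair of libraries of each plasmid moved the other way in these genes, 18 of them higher and 5 lower in preovulatory control cells. For the same reason ENSGALG00000000956 is listed, whose log2 phase ratio in the control pair exceeded that in the FOXL2 pair by 1.95. The difference between plasmids was not tested in either case, since each group has 1 library.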

How the results depend on the processing

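The 2-fold and 4-fold counts depend on the pseudocount. With 5 FPKM, the preovulatory control was 2-fold above the prehierarchical one in 322 genes and 2-fold below it in 408, with 37 and 65 genes at 4-fold. With 0.1 FPKM the 4-fold counts were 222 higher and 362 lower. A filter at 5 FPKM left 544 genes 2-fold lower, since fewer genes enter, against 556 higher.

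Scaling moved the split. With the median ratio set to 0, 509 genes were 2-fold higher (31.7% of those 2-fold apart), the class medians were 0.10 at 10 to 30 FPKM and -0.52 at 300 to 1000 FPKM, and the overall median was 0.00 by construction. With the trimmed mean (30% off each end) set to 0, 514 genes were higher (32.0%), the class medians were 0.10 and -0.51, and the overall median was 0.0036. The difference between the 2 class medians was 0.62 under both scalings, as on the deposited scale. That is by construction, since each scaling takes the same constant off every log2 ratio. In the FOXL2 libraries it was 0.88, with a median of -0.51 at 300 to 1000 FPKM when classes were set by those libraries, and the log2 ratio of ENSGALG00000000956 was -0.44, opposite in sign to the control pair.

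The share of 2-fold higher genes also 2-fold higher in the FOXL2 pair was 55.9% with the filter at 5 FPKM, 44.8% with the median set to 0 and 45.3% with the trimmed mean set to 0. The share for lower genes was 70.6% and 70.8% with pseudocounts of 0.1 and 5 FPKM, 71.1% with the filter at 5 FPKM, 70.9% and 70.8% with the median and the trimmed mean set to 0, and 61.7% with equal FPKM sums. It was above the share for higher genes under each of these alternatives. The causes of these shifts were not tested. Of 133 values under the alternatives, 104 moved by less than the limits set for them. These limits were 1.5-fold for counts and single genes, 0.1 log2 for medians, 10 percentage points for the split and the 95% binomial interval for shares. Some of the values could not move, such as the ratio of a named gene under a changed filter, so the count of 104 is no measure of stability. The binomial interval treats genes as independent, which was not tested. Gene list medians were not run, since no symbols were assigned. No paired analysis was possible because each group has 1 library. Leaving out a library was not possible for the same reason. On the assumption made above for the size of 1 fragment, values near 1 FPKM rest on few fragments.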
